A study of Homo sapiens with 6 samples.

Results

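The E2F and RB family is the set of transcription factors and their inhibitors that controls entry into S phase. Here it was taken as every probe set (a group of short array probes that reads 1 transcript) annotated to E2F1, E2F2, E2F3, E2F4, E2F5, E2F7, E2F8, TFDP1, RB1 or RBL1. This gave 23 probe sets of 10 genes, out of 54613 non-control probe sets and 19775 genes. All 23 named a single gene. The samples were SKOV3 cells, an established human ovarian cancer cell line that the labels class as high grade serous. Of the 6 arrays, 3 read cells given 5 nM of a miR21 precursor and 3 read cells given a negative control precursor miRNA, each for 24 h. Both groups carried a transfected precursor, and no untransfected cells were analysed here. SKOV3 is a single line, and the labels do not say that the replicates came from separate cultures, so p-values cover only the spread among these arrays, which may be technical.

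E2F proteins bind DNA together with a DP partner and switch on the genes of DNA replication, nucleotide supply and the cell cycle. In resting cells the pocket proteins RB1, RBL1 (p107) and RBL2 (p130) hold E2Fs in an inactive or repressive state, and cyclin-dependent kinases release them by phosphorylating the pocket protein. E2F1, E2F2 and E2F3 are the classical activators, E2F4 and E2F5 act mostly as repressors with pocket proteins, and E2F7 and E2F8 are atypical repressors that bind DNA without a DP partner. Several family genes, E2F1 and E2F2 among them, are themselves E2F targets.

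The transfected agent is the precursor of miR-21, whose mature 5p strand (RefSeq, GRCh38.p14, chr17:59841273-59841294, plus strand) is shown because its seed, bases 2 to 8, in capitals, is the part that pairs with target transcripts. The arrays do not measure it, and the exact sequence of the transfected precursor is not given in the sources used here.
hsa-miR-21-5p: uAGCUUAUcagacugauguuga

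The promoters of the activator genes are shown since these genes had differences of both signs. They are set against E2F4, whose difference was near 0. Each window runs from 250 bases before to 50 bases after an annotated transcript start (RefSeq, GRCh38.p14, on the strand of the gene), and capitals mark E2F site letters. The letters searched on both strands were TTTCCCGC, TTTGGCGC, TTTGCCGC and TTTCGCG. The windows are chr20:33686336-33686635 on the minus strand for E2F1, chr1:23531184-23531483 on the minus strand for E2F2, chr6:20401629-20401928 on the plus strand for E2F3 and chr16:67191905-67192204 on the plus strand for E2F4.
E2F1: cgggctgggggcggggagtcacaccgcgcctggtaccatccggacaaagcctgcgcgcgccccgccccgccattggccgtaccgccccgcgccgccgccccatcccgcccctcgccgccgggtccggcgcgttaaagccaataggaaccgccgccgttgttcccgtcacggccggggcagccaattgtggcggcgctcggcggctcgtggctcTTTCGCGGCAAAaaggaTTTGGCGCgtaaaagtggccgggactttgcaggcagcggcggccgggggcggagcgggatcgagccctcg
E2F2: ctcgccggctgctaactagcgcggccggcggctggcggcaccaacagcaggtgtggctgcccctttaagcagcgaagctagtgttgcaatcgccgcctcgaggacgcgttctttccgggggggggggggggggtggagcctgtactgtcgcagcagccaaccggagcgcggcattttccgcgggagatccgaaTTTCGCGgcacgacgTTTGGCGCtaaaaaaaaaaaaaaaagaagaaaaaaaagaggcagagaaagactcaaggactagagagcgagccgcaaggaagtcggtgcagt
E2F3: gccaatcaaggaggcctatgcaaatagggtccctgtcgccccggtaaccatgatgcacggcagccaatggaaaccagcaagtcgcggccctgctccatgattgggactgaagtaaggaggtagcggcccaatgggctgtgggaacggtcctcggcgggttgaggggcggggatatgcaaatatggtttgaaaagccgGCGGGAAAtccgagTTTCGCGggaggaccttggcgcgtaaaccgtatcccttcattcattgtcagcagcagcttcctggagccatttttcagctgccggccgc
E2F4: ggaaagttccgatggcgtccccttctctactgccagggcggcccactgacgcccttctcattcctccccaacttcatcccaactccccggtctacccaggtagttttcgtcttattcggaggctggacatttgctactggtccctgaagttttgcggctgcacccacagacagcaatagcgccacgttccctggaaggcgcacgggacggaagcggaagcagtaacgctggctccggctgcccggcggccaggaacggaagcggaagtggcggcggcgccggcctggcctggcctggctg

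In the E2F1 window TTTCGCG lies 37 to 31 bases upstream of the start, TTTGGCGC 20 to 13 bases upstream, and TTTGCCGC, on the other strand and overlapping TTTCGCG, 33 to 26 bases upstream. The E2F2 window holds TTTCGCG at 57 to 51 and TTTGGCGC at 42 to 35 bases upstream. The E2F3 window holds TTTCCCGC on the other strand at 53 to 46 and TTTCGCG at 39 to 33 bases upstream. So E2F1 and E2F2, lower with miR21, and E2F3, higher, all hold these letters shortly before the start, and E2F4 holds none in its window. RBL1 also holds 2 matches and TFDP1 holds 1, while the E2F7 window holds none. A second E2F3 window, further into the gene, holds none. The 8 genes with a window had 9 windows in all, of which 5 held a match, against 4.04% of all 35116 windows of the same length. Counted by gene, 5 of 8 held a match, against 4.87% of all genes with a window. E2F5 and E2F8 had no window. The share was not particular to the family. Among E2F target genes with a window, 20 of 34 of DNA replication and nucleotide supply held a match. Of those of checkpoint, repair and chromatin, 8 of 17 did. The RB1 window belongs to a transcript start far inside the gene and was not read further. A match describes the letters of a window and shows no binding.

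Across the 12206 genes above the signal filter (mean log2 signal at or above the median of all probe sets, 6.03, a signal of 65.5), limma with Benjamini-Hochberg adjustment called 0 genes at an adjusted p under 0.05 (0%), and 0 of the 10 family genes. The titles number the replicates 1 to 3 in each group, and same-numbered arrays moved together. Crossed arrays of numbers 2 and 3 also did, so this does not settle how those numbers pair. With the number as a block, limma called 4 genes (0.0328%), again with 0 of the 10 family genes among them. Over all 54613 probe sets the counts were 0 without the block (0%) and 5 with it (0.00916%), with 0 of the 23 family probe sets in both. Without the block 298 genes (2.44%) and 831 probe sets (1.52%) had an unadjusted p under 0.05, and E2F1, E2F2 and E2F5 were 3 of these genes. In the block fit 6 of the 10 family genes had an unadjusted p under 0.05, against 20.1% of all genes tested. These calls turned on single replicate numbers. When the number 1 pair was dropped from the block fit, 1 of the 10 was called (TFDP1), against 0.336% of all genes, and when the number 3 pair was dropped, 6 of the 10 were, against 33.2%. With all 6 arrays, every difference below is a measured value that did not pass the adjusted test. All 10 genes had at least 1 probe set above the filter, as did 17 of the 23 probe sets. Each gene is described first by its probe set of highest mean signal.

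Replicate number 1 stood apart from numbers 2 and 3. The median signal of an array was 117 and 125 on the miR21 and control arrays of number 1, and between 55.2 and 61.8 on the other 4 arrays. A principal component analysis put 65.2% of the variance on a first axis that set the number 1 arrays against the rest. The ratio of 3' to 5' actin probe sets, a sign of RNA quality, was 1.96, 3.32 and 1.36 on miR21 arrays 1, 2 and 3, against 1.79, 2.89 and 1.29 on the control arrays. It differed more between numbers than between groups. The same ratio for GAPDH probe sets lay between 0.899 and 1.07 on all 6 arrays. The part of either ratio in the results was not tested. Of 10 epithelial ovarian cancer markers 8 were above the filter (WT1 and MUC16 were below it), as were 2 of 6 fibroblast markers, 0 of 3 measured leukocyte markers and 1 of 4 endothelial markers. The summed signal of the epithelial markers ranged from 63476 to 93586 on miR21 arrays and from 57083 to 110392 on control arrays. For the fibroblast markers it ranged from 329 to 1237 and from 394 to 1068 on miR21 and control arrays, for the leukocyte markers from 19.6 to 123 on miR21 and from 60.3 to 201 on control arrays, and for the endothelial markers from 76.0 to 567 on miR21 and from 91.7 to 729 on control arrays. Their part in the results was not tested.

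E2F1, the activator best known for driving S phase entry, was lower with miR21 in all 3 numbers. Its signals were 268, 386 and 625 on miR21 arrays 1, 2 and 3, against 803, 991 and 1026 on control arrays 1, 2 and 3. All miR21 values lay below all control values, and the number 3 miR21 array was the highest of its group. The log2 signal averaged 8.65 ± 0.61 with miR21 and 9.87 ± 0.19 with control (SD, n = 3 each), a 2.33-fold lower signal. In limma the log2 difference was -1.22 (SE 0.38, adjusted p = 0.9999), and with the block its SE was 0.22 and its adjusted p 0.0896. A second E2F1 probe set read 580, 209 and 448 on miR21 arrays, against 976, 498 and 447 on control arrays. It was lower in numbers 1 and 2 (-0.75 and -1.25) and level in number 3 (0.0023), with a mean log2 difference of -0.67.

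E2F2, another activator, was likewise lower in all 3 numbers. Its signals were 329, 322 and 620 on miR21 arrays 1, 2 and 3, against 678, 779 and 793 on control arrays. The groups did not overlap, and the number 3 miR21 array lay close to the lowest control array. The signal was 1.85-fold lower (log2 difference -0.89, limma SE 0.35, adjusted p = 0.9999). The differences within numbers 1, 2 and 3 were -1.04, -1.28 and -0.36. The other E2F2 probe sets lay far below the filter, with signals from 2.60 to 62.3, and differed by -0.81 and 0.77 on the log2 scale. Averaging all 3 E2F2 probe sets gave -0.31.

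E2F3, the third activator, was slightly higher with miR21. Its signals were 1184, 927 and 926 on miR21 arrays, against 917, 791 and 775 on control arrays. The lowest miR21 value lay just above the highest control value, so the groups did not overlap. The log2 difference was 0.28, a 1.22-fold higher signal (limma SE 0.28, adjusted p = 0.9999), and it lay at 0.17 without miR21 replicate 1. Within numbers 1, 2 and 3 it was 0.37, 0.23 and 0.26, the narrowest spread among the 10 genes. A second E2F3 probe set differed by 0.20, with 0.15, 0.48 and -0.017 in numbers 1, 2 and 3. So the activator genes did not share a direction.

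**Figure D1:**
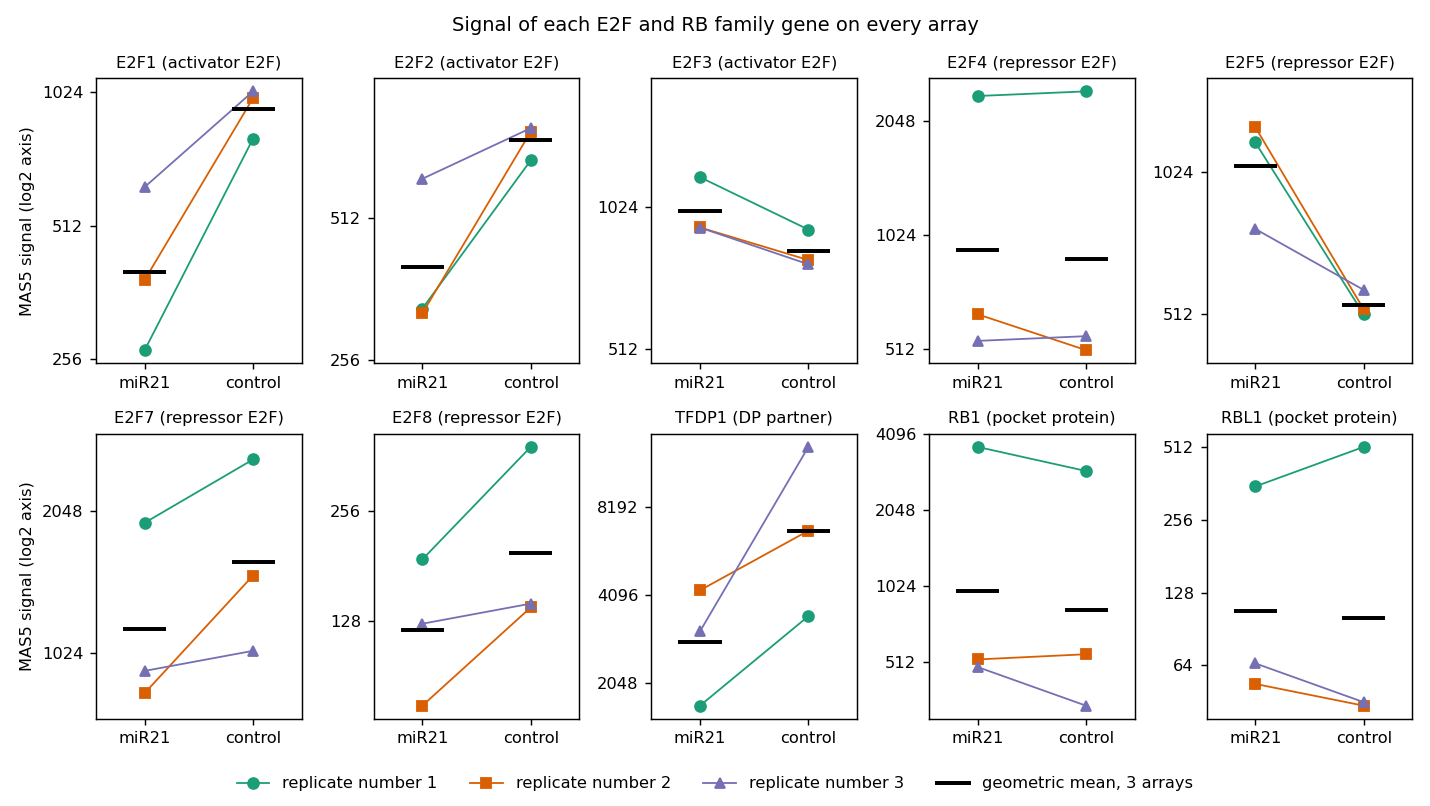
MAS5 signal (vertical axes, log2 scale, each panel with its own range) of the 10 family genes on miR21 and control arrays. Lines join arrays of the same replicate number and black bars are geometric means of 3 arrays. E2F1 and E2F2 were below and E2F3 and E2F5 above all control arrays on the miR21 arrays, while E2F4, RB1 and RBL1 differed mainly between number 1 and the other numbers.

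Among the repressors, E2F5 stood on the higher side. Its signals were 1179, 1271 and 774 on miR21 arrays 1, 2 and 3, against 511, 523 and 575 on control arrays. All miR21 values lay above all control values, and the control arrays lay close together. The log2 signal averaged 10.04 ± 0.39 with miR21 and 9.07 ± 0.09 with control (SD, n = 3 each). This was a 1.96-fold higher signal (log2 difference 0.97, limma SE 0.31, adjusted p = 0.9999, and 0.120 with the block), with 1.21, 1.28 and 0.43 in numbers 1, 2 and 3. The other E2F5 probe set lay below the filter (0.55, with -0.78 in number 3).

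E2F4, the E2F that most often sits with pocket proteins at repressed promoters, showed no shared direction. Its signals were 2385, 633 and 538 on miR21 arrays, against 2453, 509 and 554 on control arrays. The arrays of number 1 were about equally high in both groups. Its log2 difference was 0.077 (0.13 for a second probe set), with a 95% interval from -0.31 to 0.47 in the block fit. Its sign turned without miR21 replicate 1 (-0.60), control replicate 2 (-0.32) or control replicate 3 (-0.26).

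The atypical repressor E2F7 was lower in all 3 numbers. Its signals were 1930, 842 and 938 on miR21 arrays, against 2627, 1493 and 1034 on control arrays. The groups overlapped, since number 1 was high in both. The log2 difference was -0.47, a 1.39-fold lower signal (limma SE 0.47, adjusted p = 0.9999, block SE 0.17). It ranged from -0.84 without miR21 replicate 1 to -0.11 without control replicate 1, and was -0.25 without miR21 replicate 2 and -0.78 without control replicate 3. Another probe set, just above the filter, differed by -0.21 but went both ways (0.47, -0.14 and -0.97 in numbers 1, 2 and 3).

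E2F8, the other atypical repressor, is read by 1 probe set. Its signals were 188, 74.7 and 125 on miR21 arrays, against 384, 139 and 143 on control arrays. Each miR21 array lay below the control array of its number, and the groups overlapped. E2F8 had a 1.63-fold lower signal (log2 difference -0.70, limma SE 0.58, adjusted p = 0.9999), with -1.03, -0.90 and -0.18 in numbers 1, 2 and 3. Leaving out control replicate 1 gave -0.22, and leaving out miR21 replicate 2 gave -0.36.

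TFDP1 encodes DP1, the dimerisation partner that E2F1 to E2F5 need for DNA binding. Its signals were 1707, 4240 and 3068 on miR21 arrays 1, 2 and 3, against 3457, 6782 and 13140 on control arrays. The control array of number 3 was the highest of all, and the groups overlapped. TFDP1 had a 2.40-fold lower signal (log2 difference -1.26, limma SE 0.55, adjusted p = 0.9999, and 0.110 with the block). In this probe set the largest difference was in number 3 (-1.02, -0.68 and -2.10 in numbers 1, 2 and 3). This was unlike the probe sets that stand for the E2Fs above. Leaving out control replicate 3 gave -0.78. A second TFDP1 probe set read 121, 289 and 724 on miR21 arrays, against 322, 582 and 1448 on control arrays, a mean log2 difference of -1.14. The last TFDP1 probe set went both ways (-0.61, -1.16 and 0.68).

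The pocket protein genes gave no stable difference. RB1, the retinoblastoma tumour suppressor, had signals of 3645, 525 and 490 on miR21 arrays, against 2927, 551 and 345 on control arrays. Its level on number 1 arrays was several times that on the others in both groups. RB1 differed by 0.25 on the log2 scale, with a 95% interval from -0.16 to 0.67 in the block fit. A second RB1 probe set, below the filter, was lower in all 3 numbers (-0.99), and the mean of both differed by -0.37. The RB1 sign also turned without miR21 replicate 1 (-0.70), control replicate 2 (-0.037) or control replicate 3 (-0.38).

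RBL1, which encodes the pocket protein p107, had signals of 353, 53.4 and 65.0 on miR21 arrays, against 515, 43.4 and 44.9 on control arrays. On the arrays of numbers 2 and 3 these lie below the filter value of 65.5. RBL1 differed by 0.097 on the log2 scale (-0.54, 0.30 and 0.54 in numbers 1, 2 and 3), with a block interval from -0.73 to 0.92. The other 3 RBL1 probe sets differed by -0.37, -1.31 and -0.57, and those of -1.31 and -0.57 lay below the filter. The RBL1 sign turned in each fit without both arrays of a number and without miR21 replicate 1 (-0.76), control replicate 2 (-0.51) or control replicate 3 (-0.48).

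**Figure D2:**
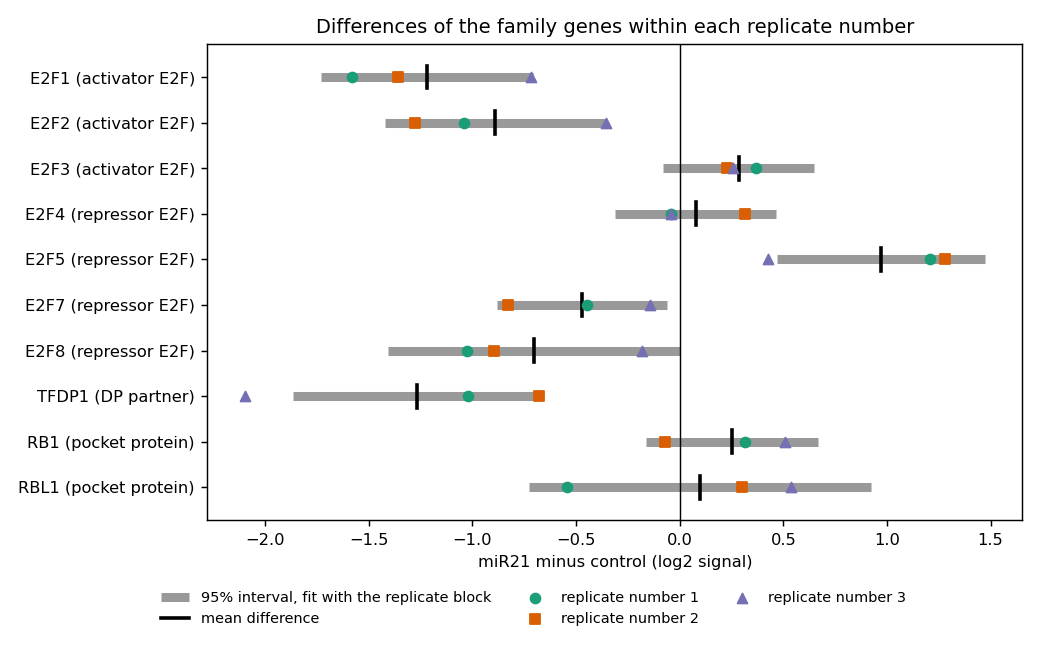
Log2 difference of miR21 minus control (horizontal axis) for the 10 family genes. Symbols are the differences within replicate numbers 1, 2 and 3, black marks their mean, and grey bars the 95% interval of the limma fit with the replicate block. E2F1, E2F2, E2F7, E2F8 and TFDP1 were below 0 in all 3 numbers, and E2F3 and E2F5 above 0 in all 3.

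Counted together, 5 of the 10 genes were lower in all 3 numbers, against 20.9% of all genes tested, and 2 were higher in all 3, against 20.3%. The groups did not overlap for 2 genes on the lower side (E2F1 and E2F2), against 3.27% of all genes tested, and for 2 on the higher side (E2F3 and E2F5), against 3.38%. Over the 23 probe sets, 8 were lower in all 3 numbers, against 18.1% of all probe sets, and 2 were higher, against 14.4%. The family was chosen with earlier results of these data known, so these counts describe it and are no test.

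**Figure D3:**
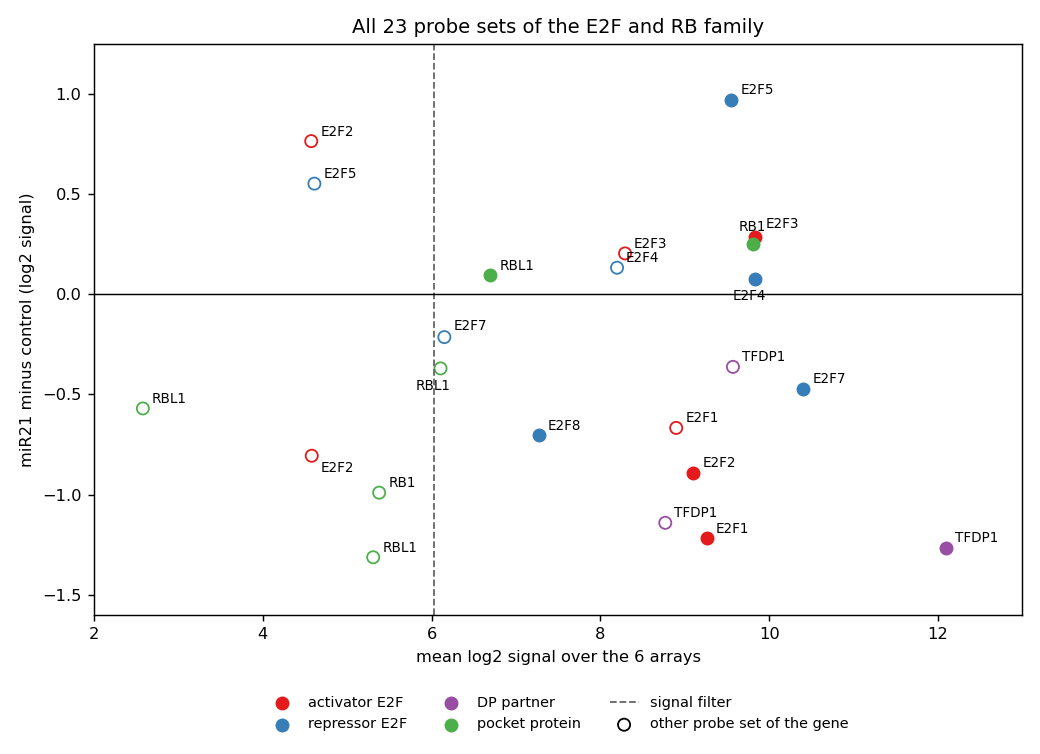
Log2 difference of miR21 minus control (vertical axis) against mean log2 signal over the 6 arrays (horizontal axis) for all 23 probe sets, coloured by role. Filled points are the probe set that stands for the gene and the dashed line is the signal filter at 6.03. The E2F1, E2F7, E2F8 and TFDP1 probe sets were all below 0, those of E2F3, E2F4 and E2F5 all above 0, and those of E2F2, RB1 and RBL1 lay on both sides.

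The mean over activator genes was lower with miR21 by a log2 difference of -0.61, and the mean over repressor genes differed by -0.031. The activators minus repressors difference was therefore -0.58 (-0.68, -0.77 and -0.29 in numbers 1, 2 and 3). This contrast depended on how the repressors were grouped. It was -1.13 with E2F4 and E2F5 alone as repressors and -0.022 with E2F7 and E2F8 alone, since E2F7 and E2F8 were lower along with E2F1 and E2F2. With each gene's probe sets averaged it was -0.29, and with the probe set of largest variance -0.012, but both bring in E2F2 and E2F5 probe sets below the filter. With the probe sets above the filter alone these rules gave -0.54 and -0.67. Leaving out miR21 replicate 1 gave -0.11, miR21 replicate 3 gave -0.95 and control replicate 1 gave -0.998. Activators and repressors thus did not separate by direction. E2F1, E2F2, E2F7 and E2F8 were on the lower side, and E2F3 and E2F5 on the higher side.

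The other genes of the pathway were taken as 6 lists, also chosen with earlier results known. The genes named from each list are up to 4 of smallest p in the gene fit, so they need not be typical of it. In each list limma called 0 genes, with and without the block. The 3 measured relatives had a median log2 difference of -0.013, against -0.010 over all genes tested. TFDP2, the other DP partner gene, differed by 0.48 (1.00, 0.18 and 0.26 in numbers 1, 2 and 3), and its 3 further probe sets by 0.36 to 0.78. The sign of TFDP2 turned without control replicate 1 (-0.27), and it was 1.15 without miR21 replicate 1. E2F6, a repressor that acts without pocket proteins, differed by -0.043, and the pocket protein gene RBL2 by -0.013, with another RBL2 probe set at 0.58.

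Genes that E2Fs are known to activate in DNA replication and nucleotide supply were on the lower side. Of 39 measured genes (40 listed), 24 were lower in all 3 numbers, against 20.9% of all genes tested. In all 3 numbers 0 were higher, against 20.3%, and the median log2 difference was -0.73. In the block fit 32 of them had an unadjusted p under 0.05 on the lower side, against 10.3% of all genes tested, and 0 on the higher side, against 9.81%. None of the 39 passed the adjusted test. TYMS, the thymidylate synthase gene, had signals of 2070, 2642 and 9199 on miR21 arrays, against 9111, 9779 and 11759 on control arrays (log2 difference -1.46). The replisome gene GINS1 differed by -1.41, the replicative helicase gene MCM6 by -1.07 and the thymidine kinase gene TK1 by -1.26. The other TYMS probe set above the filter differed by -1.47. Averaging all TYMS probe sets, which brings in signal below the filter, gave -0.70. Leaving out miR21 replicate 3 moved TK1 to -1.92. The list median within numbers 1, 2 and 3 was -1.08, -1.17 and -0.088, so the difference of number 3 was small here, as it was for E2F8 and E2F7. This median was -0.46 with miR21 replicate 1 left out and -1.28 with miR21 replicate 3 left out.

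E2F target genes of checkpoint, repair and chromatin had a median of -0.55 over 16 measured genes (20 listed). Of these, 6 were lower in all 3 numbers, against 20.9% of all genes tested, and 0 higher, against 20.3%. On the lower side 7 of the 16 had an unadjusted p under 0.05 in the block fit, against 10.3% of all genes tested. On the higher side 0 had, against 9.81%. The within-number medians were -0.84, -0.89 and 0.10. UHRF1, which guides maintenance DNA methylation, differed by -1.25 without overlap of the groups, and DNMT1, the maintenance methyltransferase gene, by -0.61. CDCA7 differed by -0.80 and BARD1, the partner of BRCA1, by -0.67. These values rested in part on single arrays. Without miR21 replicate 2 UHRF1 was -0.83, CDCA7 -0.35 and BARD1 -0.40, and without miR21 replicate 3 DNMT1 was -0.92, CDCA7 -1.23 and BARD1 -1.04. The list median was -0.96 with miR21 replicate 3 left out, -0.32 without both arrays of number 2 and -0.90 without both of number 3. Fewer cells in S phase and less of these RNAs per cell cannot be told apart in bulk samples.

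Upstream of RB, the 15 measured cyclins, kinases and inhibitors (18 listed) had a median of -0.48. Of these, 10 were lower in all 3 numbers, against 20.9% of all genes tested, and 1 higher, against 20.3%. In the block fit 7 of the 15 had an unadjusted p under 0.05 on the lower side, against 10.3% of all genes tested. On the higher side 1 had, against 9.81%. CDK6, a kinase that phosphorylates RB, had signals of 1151, 1550 and 2964 on miR21 arrays, against 3817, 4110 and 4343 on control arrays. These did not overlap, and the log2 difference was -1.23, while the other CDK6 probe sets above the filter differed by -1.53, -0.30 and -0.26. SKP2, which marks the inhibitor p27 for degradation, differed by -1.92, the cyclin E gene CCNE2 by -1.88 and the cyclin D gene CCND3 by -1.14. With 1 array left out SKP2 was -1.27 (miR21 replicate 1), CCNE2 -1.05 (control replicate 1) or -1.22 (miR21 replicate 2), and CCND3 -0.63 (miR21 replicate 2), and averaged probe sets gave -1.25 for SKP2. The list median was -0.31 with miR21 replicate 1 left out, -0.95 with miR21 replicate 3 left out and -0.24 with no signal filter.

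The MuvB core forms the DREAM repressor complex with E2F4 and p107 or p130. The list of this core and its partners had a median of -0.36 over 7 genes. The mitotic transcription factors FOXM1 and MYBL2, partners of the core, both differed by -0.91. FOXM1 was lower in all 3 numbers (-1.14, -1.46 and -0.13), and MYBL2 in numbers 1 and 2 (-1.54, -1.21 and 0.021). Without miR21 replicate 1 they were -0.52 and -0.43, and without miR21 replicate 3 they were -1.42 and -1.55. LIN37 differed by 0.28 and RBBP4 by -0.36, with the other RBBP4 probe sets from -0.67 to 0.44. LIN37 ranged from 0.049 without miR21 replicate 2 to 0.46 without control replicate 2, and RBBP4 turned to 0.085 without miR21 replicate 1. The MuvB median ranged from -0.78 with the probe set of largest variance to -0.13 without control replicate 1.

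The 11 measured corepressors (12 listed) had a median of 0.0074. SUV39H1, a histone methyltransferase that works with RB, differed by -0.78 and the Polycomb gene EED by -0.37. HDAC1, a histone deacetylase recruited by pocket proteins, differed by 0.43 and PCGF6 by 0.38. HDAC1 ranged from 0.046 without control replicate 1 to 0.80 without miR21 replicate 1, PCGF6 from 0.24 without control replicate 2 to 0.59 without control replicate 3, and EED turned to 0.018 without miR21 replicate 1. SUV39H1 was -1.19 without miR21 replicate 3. Of the 11 genes, 2 were lower in all 3 numbers, against 20.9% of all genes tested, and 3 higher, against 20.3%. These counts are near the shares over all genes.

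**Figure D4:**
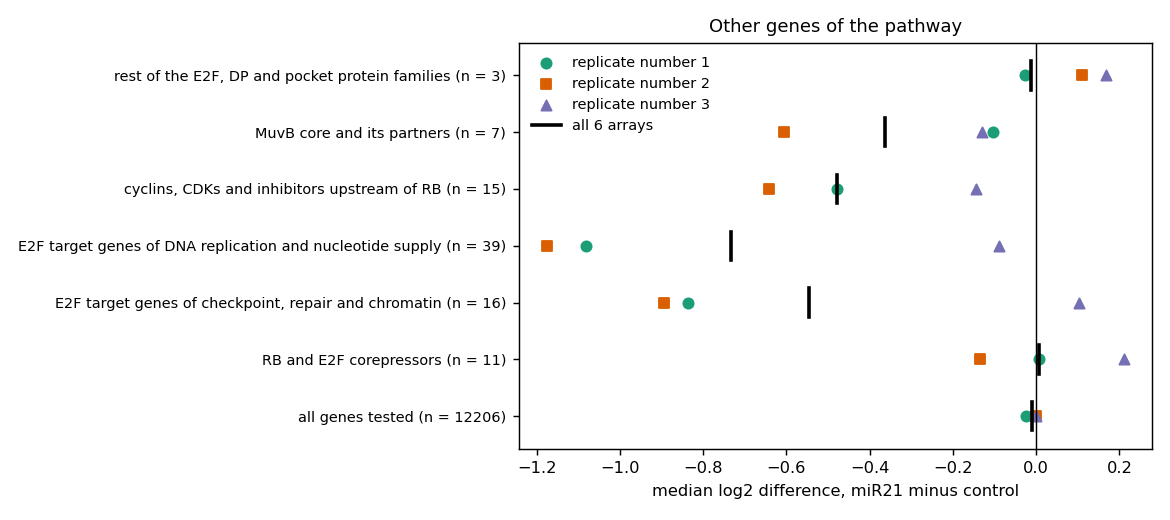
Median log2 difference of miR21 minus control (horizontal axis) for the 6 pathway lists and for all genes tested, with the number of measured genes in each. Symbols are medians within replicate numbers 1, 2 and 3 and black marks the median over all 6 arrays. The 2 target lists had the lowest medians over all 6 arrays, and lay between -1.17 and -0.84 in numbers 1 and 2 and between -0.088 and 0.10 in number 3.

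The genes whose array pattern was most like that of E2F1 were named by the smallest mean absolute difference of centred log2 signals over the 6 arrays. CDK6 was nearest (mean absolute difference 0.0835), followed by the ribonuclease gene ANG (0.106) and POU5F1B (0.109), a near-identical copy of POU5F1 whose probes may read both. ANG differed by -1.01 and POU5F1B by -1.01 on the log2 scale, each without overlap of the groups. These genes were picked for a pattern like that of E2F1 on the same arrays. Their similar differences therefore follow from the choice and are no further result.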

How the data were processed

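Gene expression was read on U133 Plus 2.0 arrays from amplified, biotin-labelled total RNA, per the labels' protocols. The authors deposited 1 linear intensity per probe set and array, made with MAS5 per the submitters' processing notes. The 2% trimmed mean was 500 on all 6 arrays, so scaling came before deposit and hides any change common to most genes. Probe sets were named from the platform annotation, and probe sets of several genes were not used. A gene was read by the probe set with its highest mean log2 signal, and kept if that mean reached the median of all probe sets. Log2 signals, with no pseudocount, went into lmFit and eBayes (limma 3.58.1, R 4.3.3, variance trend on) with Benjamini-Hochberg adjustment over all genes or all probe sets. Precision is limited by having 3 arrays a group. The steps were tested on simulated data.

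Replicate numbers were read from the titles. Deviations from the group means correlated at 0.899, 0.638 and 0.635 for same-numbered arrays, all over 0.1, so the numbers were taken to pair the arrays. Crossed pairs of numbers 2 and 3 also passed 0.1. The values were 0.411 for miR21 2 with control 3 and 0.283 for miR21 3 with control 2. This rule alone therefore cannot tell the pairing of numbers 2 and 3 from the crossed one. The planned fit has no block.

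The named genes were all 10 members, up to 4 genes of smallest p per list and the 3 genes nearest to E2F1. The members and lists were chosen with earlier results of these data known. Alternatives were quantile normalization, median centring, 16 added to each signal, other filters and probe set rules, no variance trend, array weights, the block, and arrays left out.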

Additional observations from a re-analysis of the deposited data

How the results depend on the processing

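Over all alternatives without the block limma called 0 genes and 0 probe sets. With the replicate block it called 4 genes and 5 probe sets. Without both arrays of number 1, with the block, it called 41 genes (0.336%), TFDP1 among them (-1.39, adjusted p = 0.0347), and 106 probe sets. Without number 3 it called 4099 genes (33.2% of those tested) and 5249 probe sets, and 6 of the 10 family genes (E2F1, E2F2, E2F5, E2F7, E2F8 and TFDP1). Each of these fits rests on 2 pairs, and without number 2 it called 0 of both. The activator minus repressor difference kept its sign throughout. It moved by more than 0.26, the SD of its differences within numbers, with E2F4 and E2F5 alone (-1.13), E2F7 and E2F8 alone (-0.022), averaged probe sets (-0.29) and the probe set of largest variance (-0.012), though not with these rules over probe sets above the filter (-0.54 and -0.67, added after seeing the data), and ranged from -0.998 to -0.11 with 1 array left out. Without both arrays of number 1, 2 or 3, fits added after seeing the data, it was -0.53, -0.48 and -0.72. E2F1, E2F2, E2F3, E2F5, E2F7, E2F8 and TFDP1 kept their sign in every alternative of the gene fit that gave them a value. The E2F2 probe set of largest variance, below the filter and so absent from that fit, differed by 0.77. With 1 array left out E2F4 ranged from -0.60 to 0.81, RB1 from -0.70 to 1.17 and RBL1 from -0.76 to 1.28. In such fits the number of the missing array has no partner. E2F4 also turned without number 2 (-0.041) and RB1 with averaged probe sets (-0.37). RBL1 turned without number 1 (-0.39, where another probe set stands for the gene), 2 (-0.0048) or 3 (-0.12). The cause was not tested. Among other genes, with 1 array left out E2F6 ranged from -0.24 to 0.21, RBL2 from -0.97 to 0.95, TFDP2 from -0.27 to 1.15, RBBP4 from -0.77 to 0.085 and EED from -0.78 to 0.018. E2F6 turned with median centring (0.056), array weights (0.062) and without number 1 (0.14). RBL2 turned with median centring (0.086), array weights (0.076), without number 2 (0.031) and with averaged probe sets (0.28), and RBBP4 with the probe set of largest variance (0.045).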

Other observations

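The family genes E2F4, E2F7, E2F8, RB1 and RBL1 differed more between the number 1 arrays and the others than between the precursors. Each gene was read by its probe set of highest mean signal, and the observation was chosen after the values were seen. Both differences were about equal for E2F3 (0.29 and 0.28) and for TFDP1 (-1.26 for both). RB1 was 2.80 log2 units higher on the number 1 arrays than on the arrays of numbers 2 and 3 (2.85 with miR21, 2.75 with control). RBL1 was 3.06 units higher (2.58 and 3.54), against values below the filter in numbers 2 and 3. RBL2 was 2.89 units higher (2.88 and 2.90), E2F4 2.12 (2.03 and 2.21), E2F8 1.20, E2F7 1.10 and E2F3 0.29. Of the other probe sets above the filter, those of E2F7 (1.79), E2F4 (1.42) and E2F3 (0.54) were also higher on number 1 arrays. Those of RBL1 (-0.32) and RBL2 (-1.85) were lower. Of all 12206 genes tested 817 (6.69%) were more than 2 units apart in this way, 703 higher and 114 lower on number 1 arrays. TFDP1 differed by -1.26, E2F1 by -0.60, E2F2 by -0.33 and E2F5 by 0.074. Other probe sets above the filter did not all go the same way, with E2F1 at 0.98 and TFDP1 at 0.52 and -1.71. The array medians differed between the same arrays, as given above, and their part in these levels was not tested.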
